A study of Mus musculus with 4 samples.

Results

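This account describes 9 genes of transforming growth factor beta (TGF-β) signaling in the fetal mouse lung: the ligands *Tgfb1*, *Tgfb2* and *Tgfb3*, the latency proteins *Ltbp1* and *Ltbp3*, the integrin subunits *Itgav*, *Itgb6* and *Itgb8*, and the receptor *Tgfbr2*. They are 9 of the 45706 genes in the table of counts, and all 9 passed the filter on low counts that left 18763 genes for testing. The genes were selected on their counts in these same lungs, compared between genotypes, so no test can support their differences between genotypes, which are given as a description. How many of them were past the threshold used for all genes is given beside the share of all genes, and nothing is read from it.

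TGF-β is secreted in a latent form. The propeptide of each ligand stays wrapped around the mature growth factor, and a latent TGF-β binding protein ties this complex to the extracellular matrix. Integrins that pair the αv subunit with β6 or β8 bind an arginine-glycine-aspartate (RGD) site in the propeptide and free or expose the ligand, which then binds the type II receptor, recruits the type I receptor and activates SMAD transcription factors. In the lung, αvβ6 is an epithelial integrin, whereas αvβ8 has been found on epithelial cells, fibroblasts and other cells. TGF-β signaling restrains branching and directs the mesenchyme and its matrix during lung development.

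RNA was taken from the left lung lobe of C57BL/6 mice at embryonic day 17 (E17), with 2 *Myh10*+/+ (wild-type) lungs and 2 lungs homozygous for the L458R allele of *Myh10* (*Myh10*-/-), and no lung was treated. *Myh10* encodes the heavy chain of non-muscle myosin II-B, the allele came from a chemical mutagenesis screen and changes 1 amino acid, and the comparison asks how RNA levels differ in the mutant lung. The reads counted on genes numbered 23156026 and 19116971 in the *Myh10*+/+ lungs 1 and 2 and 27573824 and 32055306 in the *Myh10*-/- lungs 1 and 2. Values are given in this order of lungs, in CPM, the counts of a lung scaled by its TMM-adjusted total, and fold changes are *Myh10*-/- over *Myh10*+/+ on the log2 scale with the standard error (SE) of the fit.

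*Myh10* itself was at 505, 504, 539 and 513 CPM. A missense allele leaves the transcript in place, and the 4 lungs were close, so the level of *Myh10* does not check the labels. *Xist*, transcribed from the inactive X chromosome of females, was at 3916, 1.84, 4.10 and 4457 CPM, high in *Myh10*+/+ lung 1 and in *Myh10*-/- lung 2. The Y-linked genes were high in the other two lungs, with *Ddx3y* at 182 and 198 CPM, *Kdm5d* at 90.9 and 105 CPM, *Eif2s3y* at 111 and 117 CPM and *Uty* at 72.9 and 86.6 CPM. Each genotype thus had 1 lung with high *Xist* and 1 with high Y-linked genes.

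The tissue carried the markers of fetal lung. *Nkx2-1*, a transcription factor that specifies lung epithelium, was at 434, 455, 455 and 448 CPM, and *Sftpc*, the surfactant protein C gene of alveolar type 2 cells, was at 5815, 5630, 3876 and 4750 CPM. Markers of mesenchyme, led by *Vim* at 943, 947, 846 and 850 CPM, and of endothelium, led by *Cdh5* at 388, 359, 365 and 336 CPM, were counted in every lung. In whole lobes, fewer cells of a type and less RNA per cell cannot be told apart.

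Of all 18763 genes tested with the quasi-likelihood test of edgeR, 308 (1.64%) had a Benjamini-Hochberg adjusted p-value under 0.05. Of these, 56 (0.298%) were higher and 252 (1.34%) lower in *Myh10*-/- lungs, and the median log2 fold change of all tested genes was 0.0018. Among the 9 genes described here, 1 was past that threshold as higher (*Itgb8*) and 1 as lower (*Itgb6*). Neither was past it without *Myh10*+/+ lung 2 or without *Myh10*-/- lung 1, and *Itgb6* was not with DESeq2 size factors or with filterByExpr. In 7 of the 9, both *Myh10*-/- lungs lay on the same side of both *Myh10*+/+ lungs, which was so for 48.3% of all tested genes. Because this contrast chose the genes, nothing is read from these counts.

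**Figure D1:**
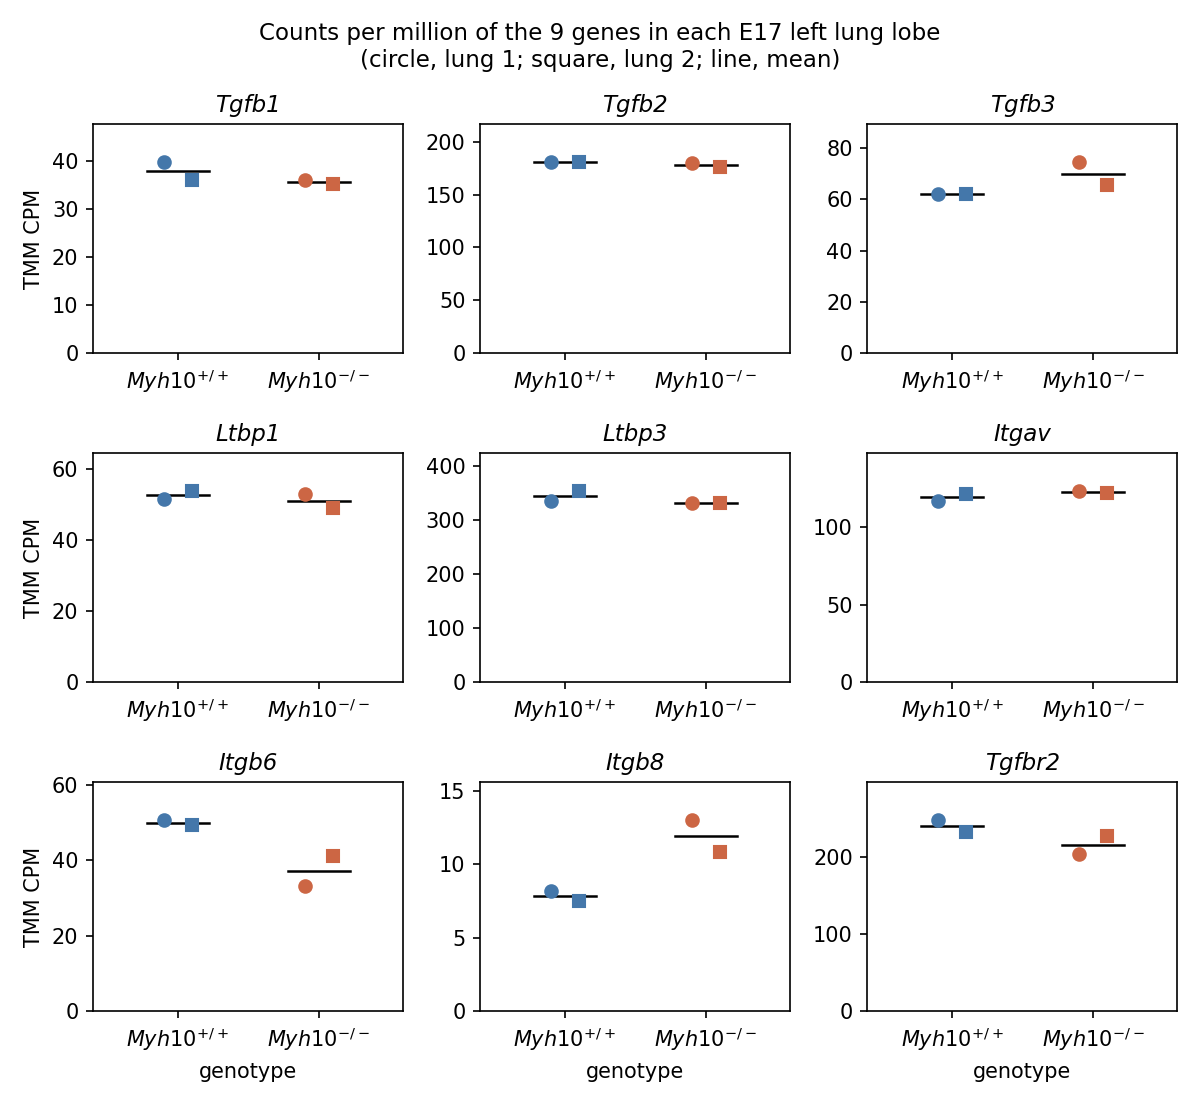
TMM-scaled CPM (vertical axes, each starting at 0) of the 9 genes in the 2 *Myh10*+/+ lungs (blue) and the 2 *Myh10*-/- lungs (orange), where each point is 1 lung and each line the mean of a genotype. *Itgb6* was lower and *Itgb8* higher in both *Myh10*-/- lungs, while the points of the other genes lie nearer to each other.

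The ligands are the dimeric growth factors that the receptors bind. *Tgfb1* (ENSMUSG00000002603), the isoform abundant in platelets and immune cells, was at 39.6, 36.0, 36.1 and 35.2 CPM. One *Myh10*+/+ lung was above the other 3, which lay together, and the genotypes overlapped (log2 fold change -0.09, SE 0.08, and from -0.15 to -0.014 with a lung left out). *Tgfb2* (ENSMUSG00000039239), whose loss in mice causes defects in many organs at birth, was at 181, 181, 180 and 176 CPM. The 4 lungs were nearly level, with both *Myh10*-/- lungs just under the *Myh10*+/+ lungs (log2 fold change -0.02, SE 0.05, and from -0.037 to -0.00055 with a lung left out). *Tgfb3* (ENSMUSG00000021253), an isoform needed for palate fusion and normal development of the lung, was at 62.1, 62.3, 74.5 and 65.5 CPM. Here *Myh10*-/- lung 1 stood above the other 3 lungs and *Myh10*-/- lung 2 only slightly above both *Myh10*+/+ lungs, without overlap of the genotypes (log2 fold change 0.17, SE 0.08). Without *Myh10*-/- lung 1 the log2 fold change of *Tgfb3* was 0.08 and without *Myh10*-/- lung 2 it was 0.26.

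The latency proteins store the ligand in the matrix. *Ltbp1* (ENSMUSG00000001870), which binds the propeptides by a disulfide bond and anchors them to fibronectin and fibrillin, was at 51.7, 53.8, 53.2 and 49.0 CPM. The lowest and the next highest lung were both *Myh10*-/-, so the genotypes overlapped (log2 fold change -0.05, SE 0.08), and the log2 fold change ran from -0.10 to 0.014 with a lung left out, above 0 only without *Myh10*-/- lung 2. *Ltbp3* (ENSMUSG00000024940), a second carrier of the latent complex, was at 335, 354, 333 and 332 CPM. *Myh10*+/+ lung 2 was the highest and the other 3 differed little, although both *Myh10*-/- lungs were below both *Myh10*+/+ lungs (log2 fold change -0.05, SE 0.05, and from -0.089 to -0.012 with a lung left out).

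The integrin subunits differed from each other. *Itgav* (ENSMUSG00000027087), the αv subunit that αvβ6 and αvβ8 share, was at 117, 121, 123 and 122 CPM. *Myh10*+/+ lung 1 was a little below the other 3, and the *Myh10*-/- lungs were just above the *Myh10*+/+ lungs (log2 fold change 0.04, SE 0.05, and from 0.013 to 0.069 with a lung left out). *Itgb6* (ENSMUSG00000026971), the β6 subunit of epithelial cells, was at 50.6, 49.5, 33.2 and 41.0 CPM. The *Myh10*+/+ lungs were level, both *Myh10*-/- lungs were lower without overlap, and *Myh10*-/- lung 1 was the lowest. The *Myh10*+/+ mean was 50.1 ± 0.825 CPM (SD, n = 2), the *Myh10*-/- mean was 37.1 ± 5.54 CPM (SD, n = 2), and the log2 fold change was -0.43 (SE 0.10), 1.35-fold lower. Without *Myh10*-/- lung 1 it was -0.28 and without *Myh10*-/- lung 2 it was -0.59.

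*Itgb8* (ENSMUSG00000025321), the β8 subunit, whose cytoplasmic tail is unlike that of the other β subunits, was at 8.16, 7.51, 13.0 and 10.8 CPM, from 187, 143, 361 and 348 reads. Both *Myh10*-/- lungs were above both *Myh10*+/+ lungs, and *Myh10*-/- lung 1 was the highest. The *Myh10*+/+ mean was 7.84 ± 0.462 CPM (SD, n = 2), the *Myh10*-/- mean was 11.9 ± 1.53 CPM (SD, n = 2), and the log2 fold change was 0.59 (SE 0.12), 1.51-fold higher. It was 0.46 without *Myh10*-/- lung 1 and 0.73 without *Myh10*-/- lung 2. *Myh10*-/- lung 1 was therefore the lung farthest from the *Myh10*+/+ lungs for both β subunits. Of all tested genes, 4.15% had a higher log2 fold change than *Itgb8* and 5.13% a lower one than *Itgb6*.

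The receptor subunit *Tgfbr2* (ENSMUSG00000032440), the kinase that binds the ligand first, was at 248, 233, 204 and 227 CPM. The *Myh10*-/- lungs were lower without overlap, but *Myh10*-/- lung 2 was close to *Myh10*+/+ lung 2 (log2 fold change -0.16, SE 0.06), and the log2 fold change was -0.08 without *Myh10*-/- lung 1 and -0.23 without *Myh10*-/- lung 2.

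On the GRCm38 assembly the 9 genes lie at 9 separate places. *Itgav* lies at chr2:83724397-83806916 on the plus strand and *Itgb6* at chr2:60598292-60722643 on the minus strand, and *Itgb8* lies at chr12:119158022-119238802 on the minus strand. *Tgfb3* shares chromosome 12 with *Itgb8* and lies at chr12:86056745-86079041 on the minus strand. *Tgfb1* is on chromosome 7, *Tgfb2* on chromosome 1, *Ltbp1* on chromosome 17, *Ltbp3* on chromosome 19 and *Tgfbr2* on chromosome 9. The libraries kept strand, but the sources used here do not state whether the counting did, and exons of 4 of the genes overlap a gene on the opposite strand, over 634 bp in *Itgav*, 420 bp in *Tgfb3*, 182 bp in *Ltbp3* and 124 bp in *Tgfb2*. If the counting ignored strand, reads of those stretches would fit both genes and be discarded, so these 4 counts are uncertain. Of the windows of 75 bases along the transcripts of each gene, none of *Itgb6*, *Itgb8*, *Tgfb1* or *Tgfbr2* occurred in a transcript of another gene, and neither did any window of a ligand occur in another ligand. The shares for the others were 7.34% in *Tgfb3*, 5.14% in *Itgav*, 1.12% in *Ltbp3*, 0.194% in *Ltbp1* and 0.102% in *Tgfb2*.

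To set the genes beside each other, CPM was divided by the total length of annotated exons in kb. On this scale the mean level in *Myh10*+/+ lungs was 38.0 CPM per kb for *Ltbp3*, 31.2 for *Tgfb2*, 29.4 for *Tgfbr2*, 18.4 for *Tgfb3*, 11.1 for *Itgav*, 7.50 for *Tgfb1*, 7.04 for *Itgb6*, 4.94 for *Ltbp1* and 0.709 for *Itgb8*. *Tgfb1* and *Itgb6* were neighbours that did not differ beyond their spread (SD 0.514 and 0.116, n = 2). *Tgfb2* and *Tgfbr2* were closer to each other than to the rest, with *Tgfbr2* at 30.3 and 28.4 CPM per kb and *Tgfb2* at 31.2 in both lungs. The order of the means was the same in *Myh10*-/- lungs, where *Itgb6* at 4.67 and 5.77 CPM per kb overlapped *Ltbp1* at 4.98 and 4.59. With the longest annotated transcript as the length the order of the means was again the same in both genotypes.

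**Figure D2:**
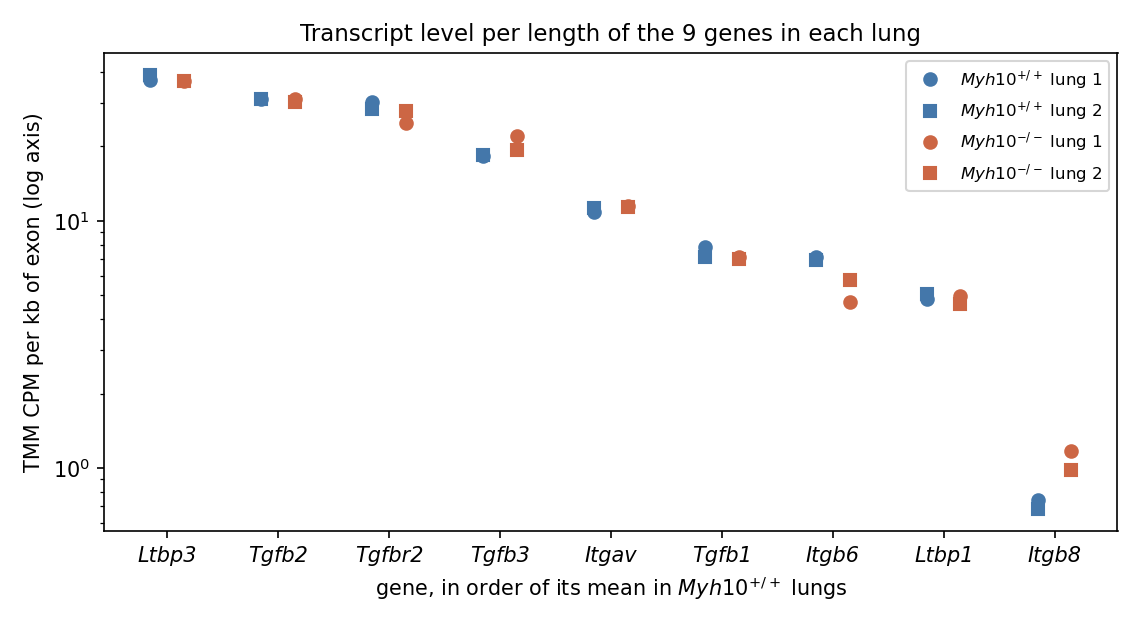
Level per exon length (vertical log axis, TMM-scaled CPM per kb) of the 9 genes in each lung, ordered by their mean in *Myh10*+/+ lungs. *Ltbp3* is the highest at a mean of 38.0 and *Itgb8* the lowest at 0.709, the means of the *Myh10*-/- lungs keep this order, and in *Myh10*-/- lung 1 *Itgb6* at 4.67 lies below *Ltbp1* at 4.98.

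Per exon length, *Tgfb2* was the most abundant ligand RNA. It made up 54.3% and 55.0% of the summed ligand level in *Myh10*+/+ lungs and 51.6% and 53.5% in *Myh10*-/- lungs. *Tgfb3* made up 32.0% and 32.5% in *Myh10*+/+ and 36.5% and 34.2% in *Myh10*-/- lungs. *Tgfb1* made up the rest, 13.7% and 12.6% in *Myh10*+/+ and 11.9% and 12.3% in *Myh10*-/- lungs. The mix was thus led by *Tgfb2* in every lung, and the sum of the ligands was 57.4, 56.7, 60.3 and 56.7 CPM per kb, with the genotypes interleaved. The share of *Tgfb1* depends on the length used, since its exon total of 5042 bp is well above its longest transcript of 2573 bp, and with the longest transcripts its mean share in *Myh10*+/+ lungs was 21.5%.

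The β6 and β8 subunits both pair with αv, and their ratio compares the RNA of these 2 subunits over the whole lobe. Per exon length, the ratio of *Itgb6* to *Itgb8* was 9.65 and 10.2 in *Myh10*+/+ lungs and 3.98 and 5.90 in *Myh10*-/- lungs. *Itgb6* was the more abundant in every lung, by a smaller factor in both *Myh10*-/- lungs. Both genes were chosen by this contrast, and the ratio adds no evidence to their own values. The 2 β subunits together were at 7.86, 7.64, 5.84 and 6.75 CPM per kb, and *Itgav* was 1.38, 1.48, 1.96 and 1.68 times their sum, so αv RNA, which also serves other β subunits, was above the sum of these partners in all 4 lungs. *Ltbp3* was 7.64, 7.74, 7.37 and 7.99 times *Ltbp1* per exon length, with the genotypes interleaved.

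The ligands differ in the site that the αv integrins bind, and the coding bases of that site are shown because they separate the ligands that αvβ6 and αvβ8 can bind through RGD from the one that lacks it. In the GENCODE coding sequence of GRCm38, RGD is encoded once in *Tgfb1*, by codons 244 to 246 in exon 5 at chr7:25697142-25697150 on the plus strand. It is encoded once in *Tgfb3*, by codons 261 to 263 in exon 5 at chr12:86062165-86062173 on the minus strand. The capitals mark the 9 bases of RGD, with 27 coding bases on either side, on the coding strand.
*Tgfb1*: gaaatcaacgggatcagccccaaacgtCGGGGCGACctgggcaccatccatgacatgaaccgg
*Tgfb3*: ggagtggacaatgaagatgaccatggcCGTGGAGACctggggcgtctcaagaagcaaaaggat
The 442 codons of *Tgfb2* encode no RGD, and *Tgfb2* was the ligand with the highest level per exon length in every lung. *Tgfb1* and *Tgfb3*, the ligands with the site, together made up 45.7% and 45.0% of the ligand level in *Myh10*+/+ and 48.4% and 46.5% in *Myh10*-/- lungs. With the longest transcripts as lengths these shares were 48.9%, 47.9%, 50.6% and 49.1%, so in *Myh10*-/- lung 1 the 2 together were above *Tgfb2*. The translated ligands were alike in the mature growth factor, with 72.3% to 78.6% identical residues over the last 112, and less alike before it, with 39.1% to 50.5%. The β6 and β8 subunits shared 38.4% of aligned residues, and *Ltbp1* and *Ltbp3* shared 49.0%.

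The genes whose counts were most like those of *Itgb8* over the 4 lungs, by the distance between log2 CPM centred on each gene's mean among 13957 genes, were *Stab2*, *Gm21817* and *RP23-45G4.3*, at distances of 0.084, 0.10 and 0.10. *Stab2*, which encodes a scavenger receptor for hyaluronan, was at 21.2, 20.2, 32.2 and 27.9 CPM, a count that is uncertain because 141 bp of its exons overlap an antisense gene. *Gm21817* was at 6.20, 5.46, 10.0 and 7.64 CPM and *RP23-45G4.3* at 2.23, 2.15, 3.38 and 2.89 CPM. All 3 share the order of lungs by which they were picked, with *Myh10*-/- lung 1 the highest.

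Among other genes of the pathway, 3 of 42 were past an adjusted p-value of 0.05, all 3 lower in *Myh10*-/- lungs, beside 1.34% of all tested genes called lower. The median log2 fold change of the 42 was -0.03, beside 0.0018 for all tested genes, and 24 were lower and 18 higher. The genotypes did not overlap in 25 of the 42, beside 48.3% of all tested genes.

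None of the 4 other receptors was past the threshold with the main edgeR fit or with DESeq2, 1 had an unadjusted p-value under 0.05 in edgeR, and log2 fold changes ran from -0.16 to 0.08 around a median of 0.03. *Acvrl1*, an endothelial type I receptor, was at 212, 219, 191 and 194 CPM, with both *Myh10*-/- lungs lower (log2 fold change -0.16, SE 0.05, edgeR adjusted p = 0.104), and was past the threshold without *Myh10*-/- lung 2. *Eng*, an endothelial co-receptor, was at 129, 121, 137 and 128 CPM, and its genotypes overlapped (log2 fold change 0.08, SE 0.06, edgeR adjusted p = 0.514). With a lung left out the log2 fold change of *Eng* ran from 0.033 to 0.13.

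Of 19 genes for latency and activation, 2 passed the test and both fell, with a median log2 fold change of -0.10, 14 lower and 5 higher. *Adamtsl2*, a secreted matrix protein that binds latent TGF-β binding proteins, was at 129, 138, 107 and 107 CPM. Both *Myh10*-/- lungs were level and below both *Myh10*+/+ lungs (log2 fold change -0.32, SE 0.05, edgeR adjusted p = 0.0178). *Tgm2*, a transglutaminase that cross-links latent complexes to the matrix, was at 145, 133, 102 and 118 CPM, again with both *Myh10*-/- lungs lower (log2 fold change -0.33, SE 0.07, edgeR adjusted p = 0.0372). The most abundant were *Bgn*, a proteoglycan that binds TGF-β, at 613, 618, 610 and 606 CPM, and *Fbn2*, a microfibril protein, at 361, 351, 417 and 366 CPM, and neither passed the test (edgeR adjusted p = 0.929 and 0.300). *Adamtsl2* missed the threshold without *Myh10*+/+ lung 2 and *Tgm2* without *Myh10*+/+ lung 1, *Fbn2* and *Acvrl1* passed it without *Myh10*-/- lung 2, and 1003 bp of *Tgm2* exons overlap antisense genes.

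Of 19 SMADs and regulators, 1 passed the test and fell, and the median log2 fold change was 0.01, with 9 lower and 10 higher. This was *Nedd4l*, a ubiquitin ligase that limits activated SMADs, at 239, 234, 195 and 197 CPM. Each genotype was level and the *Myh10*-/- lungs were lower (log2 fold change -0.27, SE 0.04, edgeR adjusted p = 0.0141). *Fkbp1a*, which binds the type I receptor and keeps it silent, was at 342, 328, 314 and 326 CPM and did not pass (log2 fold change -0.07, SE 0.05, edgeR adjusted p = 0.547). The log2 fold changes of the 19 ran from -0.27 to 0.17, a narrower range than in the other 3 lists of 19 or more genes. The largest changes of those lists were in genes with few reads per lung. They were *Mmp9* (31 to 42 reads, log2 fold change -0.65), *Inhba* (10 to 35 reads, 0.65) and *Itgb7* (28 to 40 reads, -0.64), so the ranges are not compared further. *Nedd4l* missed the threshold without either *Myh10*+/+ lung, and 277 bp of its exons overlap an antisense gene.

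Of 26 genes that TGF-β is known to induce or regulate, 1 passed the test and fell, with a median log2 fold change of -0.05, 19 lower and 7 higher. *Cdkn1a*, an inhibitor of the cell cycle, was at 18.5, 17.6, 12.9 and 13.2 CPM, with both *Myh10*-/- lungs below both *Myh10*+/+ lungs (log2 fold change -0.47, SE 0.08, edgeR adjusted p = 0.0198). *Eln*, the elastin gene and the most abundant of the list, was at 2321, 2439, 1763 and 1798 CPM, well apart between genotypes, but missed the threshold (log2 fold change -0.42, SE 0.10, edgeR adjusted p = 0.0720). *Eln* was past it in 4 of 8 other fits with all 4 lungs, DESeq2 and robust = TRUE among them, and without *Myh10*+/+ lung 1 or *Myh10*-/- lung 2. *Col3a1*, a fibrillar collagen gene, was at 1530, 1578, 1602 and 1530 CPM, and the genotypes overlapped (edgeR adjusted p = 0.973). *Cdkn1a* missed the threshold without *Myh10*+/+ lung 1 and without *Myh10*-/- lung 1, and antisense genes overlap 273 bp of *Cdkn1a* and 267 bp of *Eln*.

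Integrin subunits other than αv, β6 and β8 gave a further list of 23 genes, of which 22 were tested and *Itgad* had too few reads. One of them passed the test and fell, with a median log2 fold change of -0.17, 17 lower and 5 higher. *Itga9*, the α9 subunit that binds tenascin and fibronectin EIIIA, was at 141, 133, 111 and 117 CPM, with both *Myh10*-/- lungs lower (log2 fold change -0.27, SE 0.05, edgeR adjusted p = 0.0336), and missed the threshold without *Myh10*+/+ lung 1. *Itgb1*, the common β1 subunit, was at 1118, 1105, 1136 and 1115 CPM, and the genotypes overlapped (edgeR adjusted p = 0.945). *Itga6*, a laminin receptor subunit, was at 345, 314, 301 and 305 CPM (log2 fold change -0.12, SE 0.05, edgeR adjusted p = 0.289). With a lung left out its log2 fold change ran from -0.19 to -0.052.

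**Figure D3:**
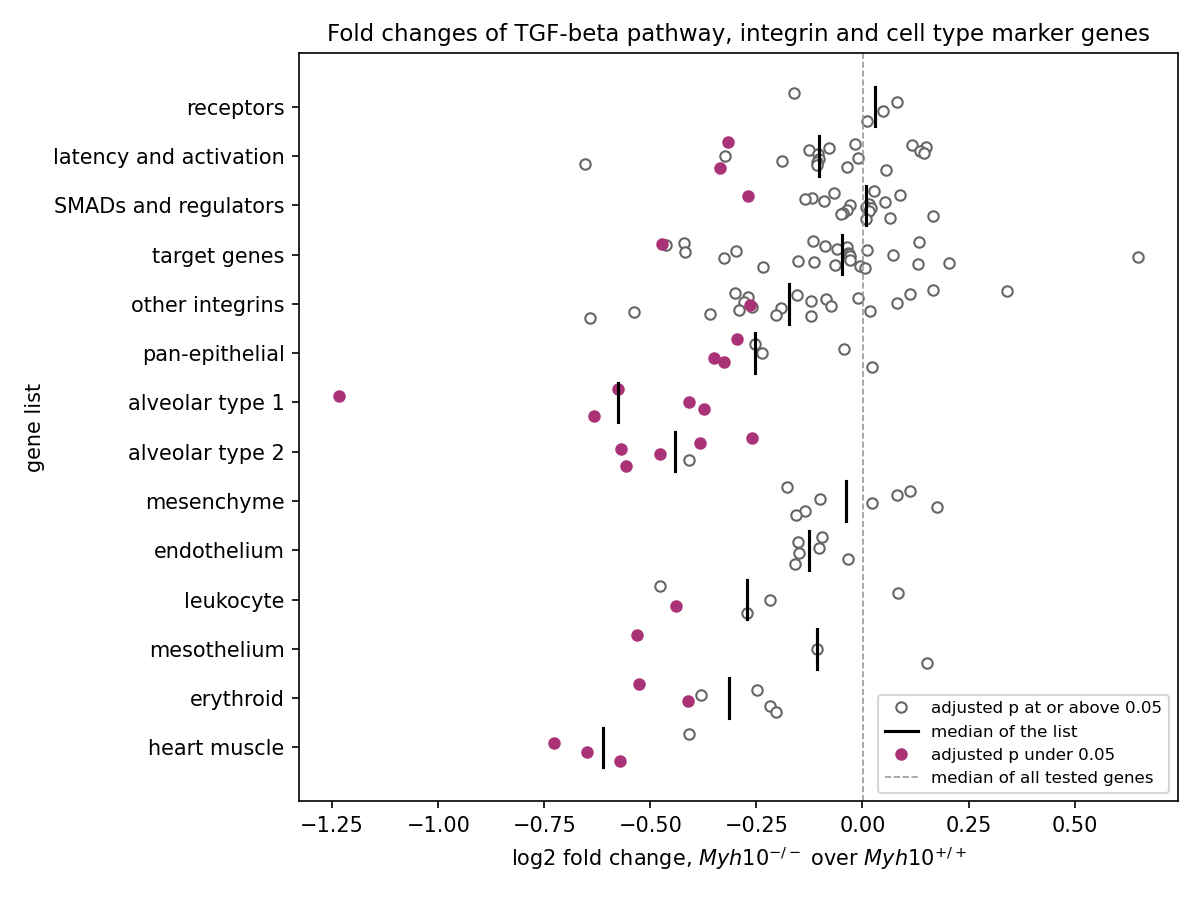
Log2 fold change (horizontal axis, *Myh10*-/- over *Myh10*+/+) of each tested gene in 5 lists of pathway and integrin genes and 9 lists of cell type markers, with filled points for adjusted p under 0.05 in edgeR, black bars for list medians and a dashed line for the median of all tested genes. All 5 alveolar type 1 markers lie to the left and are filled, whereas none of the 8 mesenchyme or 6 endothelium markers is filled. All 6 endothelium markers also lie to the left, and the mesenchyme markers lie on both sides.

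*Itgb6* is an epithelial gene, and 3 lists of epithelial markers are given beside it. All 5 alveolar type 1 markers fell, with a median log2 fold change of -0.58 and summed levels of 1164, 1146, 716 and 882 CPM, the most abundant being *Ager* at 708, 686, 421 and 515 CPM. Like *Itgb6*, this list was lowest in *Myh10*-/- lung 1. So were the summed alveolar type 2, pan-epithelial, mesenchyme, leukocyte, mesothelium and erythroid lists, whereas the endothelium and heart muscle lists were lowest in *Myh10*-/- lung 2. The other members were *Rtkn2*, *Aqp5*, *Pdpn* and *Hopx*, with log2 fold changes of -0.63, -1.23, -0.37 and -0.41 (edgeR adjusted p = 0.00441, 0.00897, 0.0293 and 0.0394, and 0.00997 for *Ager*). With DESeq2 or with robust = TRUE, 3 of the 5 were past the threshold, and *Aqp5* and *Hopx* were not. Without *Myh10*-/- lung 1 the log2 fold change of *Hopx* shrank to -0.24, and *Pdpn* missed the threshold without *Myh10*+/+ lung 1. All 6 alveolar type 2 markers were lower, with a median of -0.44 and sums of 8638, 8220, 5726 and 6809 CPM. Of the 6, 5 passed the test. They were *Sftpa1*, *Sftpb*, *Lamp3*, *Slc34a2* and *Abca3* (log2 fold changes -0.57, -0.48, -0.38, -0.56 and -0.26, and edgeR adjusted p = 0.00592, 0.00961, 0.0178, 0.0225 and 0.0458). Apart from these libraries, the authors describe more alveolar type 2 cells, raised *Sftpa*, *Sftpc* and *Abca3*, and reduced LAMP3 in mutant lungs. They also describe lower levels of the alveolar type 1 markers HOPX, PDPN and RAGE. The reason for the other direction of *Sftpa1*, *Sftpc* and *Abca3* in these libraries was not tested. The most abundant of the 6, *Sftpc*, did not pass (log2 fold change -0.41, and from -0.56 to -0.27 over the alternatives, edgeR adjusted p = 0.173). In 2 of 8 other fits with all 4 lungs *Sftpc* was past the threshold. Without *Myh10*+/+ lung 1 it was 3 of the 6, *Lamp3* and *Abca3* missing it, *Abca3* being past it in 7 of 8 other fits with all 4 lungs, and *Sftpb* missed it without *Myh10*+/+ lung 2 and *Slc34a2* without *Myh10*-/- lung 1 or with DESeq2.

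Of 7 pan-epithelial markers 6 were lower and 1 higher, with a median log2 fold change of -0.25 and sums of 2133, 2122, 1813 and 1897 CPM. Of the 7, 3 passed the test, all as lower. *Krt8*, *Cdh1* and *Krt19* had log2 fold changes of -0.33, -0.30 and -0.35 (edgeR adjusted p = 0.00984, 0.0178 and 0.0196). *Cldn18*, the most abundant, was at 617, 594, 486 and 531 CPM and *Nkx2-1* was level, and neither passed (edgeR adjusted p = 0.0844 and 0.881). The genotypes overlapped in 2 of the 7, *Nkx2-1* being one of them. DESeq2 called 4 of the 7, and 5 were past the threshold with no filter or without *Myh10*-/- lung 2, with *Cldn18* among them in all 3 fits, and *Cdh1* missed it without *Myh10*+/+ lung 1. None of the epithelial lists had a marker at 0. The part of these epithelial levels in the value of *Itgb6* was not tested.

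Markers of the other cell types give the setting of *Itgb8* and of the ligands. None of 8 mesenchyme markers passed the edgeR test, with a median log2 fold change of -0.04, 4 lower and 4 higher. The genotypes did not overlap in 4 of the lower and 3 of the higher markers. The sums, led by *Vim*, were 2337, 2314, 2194 and 2229 CPM, and *Tcf21* was at 324, 355, 298 and 320 CPM. None of 6 endothelium markers passed, with a median of -0.13 and sums of 1535, 1486, 1420 and 1360 CPM, and *Pecam1* was at 384, 370, 340 and 340 CPM. All 6 endothelium markers were lower, 4 of them without overlap of the genotypes. At an unadjusted p-value under 0.05 in edgeR there were 3 mesenchyme and 4 endothelium markers, and DESeq2 also called none. Without *Myh10*-/- lung 2 the mesenchyme markers *Foxf1* and *Tbx5* were past the threshold, and without *Myh10*-/- lung 1 the endothelium marker *Tie1* was, and these 3 are named here after their values were seen. *Foxf1* and *Tie1* were lower and *Tbx5* higher in *Myh10*-/- lungs (log2 fold changes -0.18, -0.16 and 0.17). With all 4 lungs, a block on the replicate number also called *Foxf1*, as lower. The part of mesenchymal and endothelial cells in the value of *Itgb8* was not tested.

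Of 5 leukocyte markers 4 were lower and 1 higher. *Lyz2* passed the test as lower (186, 173, 117 and 148 CPM, log2 fold change -0.44, edgeR adjusted p = 0.0293), and *Csf1r* did not pass. *Lyz2* is also made by alveolar type 2 cells. The list summed to 251, 236, 171 and 205 CPM, with a median log2 fold change of -0.27. Of 3 mesothelium markers 2 were lower, with sums of 303, 330, 218 and 269 CPM and a median of -0.11. *Msln* passed the test (207, 224, 129 and 169 CPM, log2 fold change -0.53, edgeR adjusted p = 0.0196), and *Upk3b*, also lower, did not pass. The third, *Wt1*, did not pass and was higher without overlap (6.46, 6.51, 6.79 and 7.58 CPM, log2 fold change 0.15). It is named here after its values were seen. *Lyz2* and *Msln* missed the threshold with DESeq2, and *Msln* also with robust = TRUE, and without *Myh10*-/- lung 1 they shrank to -0.28 and -0.35.

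Blood and heart cells could come with a dissected lobe. All 6 erythroid markers were lower, and 2 passed the test, *Alas2* and *Hba-a2* (log2 fold changes -0.53 and -0.41, edgeR adjusted p = 0.0293 and 0.0475). The sums were 4259, 5348, 3759 and 4274 CPM with a median of -0.31, *Hbb-bs* was the most abundant and *Hbb-bt* the next, and the copies of hemoglobin genes are so alike that their counts are uncertain. *Hba-a2* missed the threshold in 4 of 8 other fits with all 4 lungs and without *Myh10*-/- lung 1, and *Alas2* missed it with DESeq2. Without *Myh10*+/+ lung 2 no erythroid marker passed, and the log2 fold changes of the 2 shrank to -0.32 and -0.26. Of 5 heart muscle markers 4 were tested, and all 4 were lower. The test was passed by 3, *Myh6*, *Myl7* and *Tnnt2* (log2 fold changes -0.73, -0.65 and -0.57, edgeR adjusted p = 0.0117, 0.0127 and 0.0275). *Tnnt2* missed the threshold without *Myh10*+/+ lung 2 (log2 fold change -0.37). *Actc1* was the most abundant and did not pass, except in 4 of 8 other fits with all 4 lungs and in 3 of 4 with a lung left out, *Nppa* had too few reads, and the sums were 183, 234, 147 and 134 CPM with a median of -0.61. Of the genes named from the lists, exons of *Acvrl1*, *Eng*, *Fbn2*, *Krt8*, *Rtkn2*, *Hopx*, *Abca3*, *Foxf1*, *Csf1r*, *Alas2* and *Myh6* also overlap antisense genes and those of *Col3a1* a gene on its own strand, as do those of *Xist* on both strands, so their counts are uncertain. The part of blood or heart cells in the values of the 9 genes was not tested.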

How the data were processed

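The authors deposited unnormalized counts of reads on each gene for every lung. They sequenced stranded mRNA libraries as single 75-base reads, aligned them to GRCm38 with STAR 2.4.0a and counted exonic reads with featureCounts 1.5.1 (versions from the submitters' processing notes), discarding reads that fitted more than 1 gene or place.

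Genes averaging 5 counts or more per lung were tested with edgeR 4.0.16 in R 4.3.3 (TMM, glmQLFit, glmQLFTest, Benjamini-Hochberg adjustment over all tested genes). Totals of 19116971 to 32055306 counts and 2 lungs per genotype limit the precision. The lungs come from separate mice, and the 2 lungs of each genotype differed in *Xist* and in Y-linked genes, so neither pair is a repeat of the same library.

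The 9 genes and the gene lists were chosen with earlier results of these data known. Named genes are the 9 genes, every called gene of each list (at most 5 per direction), its 2 genes of highest mean CPM, the 3 genes most like *Itgb8* among those averaging 50 counts or more, *Myh10* and sex-linked genes. Positions, exon lengths and coding sequences came from GENCODE vM21. The alternatives were DESeq2 size factors, library totals, no filter, filterByExpr, DESeq2 1.42.0, robust = TRUE, a block, leaving out each lung, a minimum change of 1 on the log2 scale and another length.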

Additional observations from a re-analysis of the deposited data

How the results depend on the processing

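The *Itgb6* log2 fold change lay between -0.44 and -0.41 over the 8 other fits with all 4 lungs, and that of *Itgb8* between 0.59 and 0.62. Of 108 alternative values for the 9 genes, 104 moved by less than the spread between lungs, and 1 changed sign. Leaving out a lung can hardly move a mean by more than this spread, and the other fits reuse the same counts. The tally therefore does not show that the values are robust. With each lung left out, which leaves a lone lung assumed to vary like the others, *Itgb6* lay between -0.59 and -0.28 and *Itgb8* between 0.46 and 0.73. All 25 called and named genes of the lists were lower in every alternative, 17 of them stayed past the threshold in every fit with 4 lungs, and 11 in every fit with 3.

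The 308 called genes became 1162 with no filter, 474 with robust = TRUE and 16 with a minimum change of 1 on the log2 scale. Library totals called 234 lower and 112 higher, no filter 688 and 474, robust = TRUE 339 and 135, and the replicate block 466 and 244. The main fit called 252 lower and 56 higher, DESeq2 size factors 230 and 48, and filterByExpr 237 and 50. Lower calls thus outnumbered higher ones in every fit with all 4 lungs, but the size of this excess depended on the fit. Of the 9 genes, 1 was past the threshold with DESeq2 size factors (*Itgb8*), 1 with filterByExpr (*Itgb8*) and 1 with DESeq2 (*Itgb6*), which gave *Itgb8* no adjusted p-value. Without a filter, 5 of 42 pathway genes, 8 target genes and 5 other integrins were called. DESeq2 called 4 target genes and 2 other integrins, and robust = TRUE called 5 and 2. With the replicate block 710 genes were called, including 5 pathway genes (*Acvrl1* among them), the mesenchyme marker *Foxf1*, 3 target genes and 2 other integrins, but the lungs share only a number. Deviations of same-numbered lungs had a correlation of -0.503 across 13955 genes and 0.064 without chromosomes X and Y. A crossed block, chosen after seeing the data, called 415 genes, 3 of them pathway genes, 5 target genes and 2 other integrins. Leaving out a lung gave 206 to 1643 called genes and 0 to 4 of the 9 genes (0 without *Myh10*+/+ lung 2 or *Myh10*-/- lung 1, and 4 with *Tgfb3* and *Tgfbr2* added), 1 to 7 pathway genes, 1 without either *Myh10*+/+ lung, 2 to 6 target genes and 1 to 4 other integrins, the most in each case without *Myh10*-/- lung 2. The cause was not tested.

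With the longest transcript as the length, the mean ligand shares in *Myh10*+/+ lungs were 21.5% for *Tgfb1*, 51.6% for *Tgfb2* and 26.9% for *Tgfb3*, since the summed exons of *Tgfb1* are longer than its longest transcript. Genes near no change reversed: *Bgn* to 0.0029 with library totals, and *Col3a1* (-0.021 to 0.046) and *Nkx2-1* (-0.010 to 0.056) with a lung left out.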
